A study of Capra hircus with 6 samples.

Results

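The genes described here restrain signalling through the kinase ERK. They are 6 dual-specificity phosphatase genes (DUSP1, DUSP4, DUSP5, DUSP6, DUSP7 and DUSP10), the Sprouty genes SPRY1, SPRY2 and SPRY4, and the Sprouty-related gene SPRED1. These 10 genes were taken by symbol from the 16262 rows with a gene symbol in the FPKM tables. Messenger RNA was measured in goat (Capra hircus) adipose mesenchymal stem cells, called gADSCs, of which 3 libraries are labelled as overexpressing TAZ and 3 control libraries as WT. All 6 are labelled as under adipogenic differentiation. TAZ is a Hippo pathway coactivator encoded by WWTR1, and the study asked about its effect on the formation of fat cells. The title names TNF-α, but no sample label mentions it. The TAZ cells are described as constructed cell lines. The labels give neither the construct nor the time in differentiation, and they do not say whether replicates are separate cultures or animals.

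Growth factor receptors switch on ERK through RAS, RAF and MEK, and active ERK induces several of its own inhibitors. The dual-specificity phosphatases remove both phosphates that activate a MAP kinase. DUSP1, DUSP4 and DUSP5 act in the nucleus, DUSP6 and DUSP7 act on ERK in the cytoplasm, and DUSP10 prefers the stress kinases JNK and p38. Sprouty proteins block the path from receptor to RAS, and SPRED1 brings the RAS inactivator neurofibromin to the membrane. In fat precursor cells ERK is known to act early in differentiation, and sustained ERK activity opposes later steps.

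Values are FPKM, which scales fragment numbers by gene length and library total, and group values are means ± SD with n = 3 libraries each. The libraries held 16935698 to 18852822 fragments. Fold changes were fitted with limma on log2(FPKM + 1), TAZ minus control, a scale that understates the change of low genes. Genes were tested if they reached 1 FPKM in at least 3 libraries. A gene is said to have risen or fallen where limma's adjusted p was under 0.05 over the 10750 genes tested. WWTR1 was at 84.6, 118 and 84.2 FPKM in TAZ replicates 1, 2 and 3, against 30.2, 29.9 and 35.9 FPKM in control replicates 1, 2 and 3. The ratio of the group means was 2.99 (log2 fold change 1.54, SE 0.13, limma adjusted p = 6.91e-07). Stromal markers were high in every library, at a summed 27642 to 30110 FPKM in TAZ and 30222 to 31597 FPKM in control libraries. All 14 of these markers averaged at least 1 FPKM, whereas 4 of 13 fat cell markers did. The fat cell markers summed to 33.1 to 35.6 FPKM in TAZ and 33.6 to 37.5 FPKM in control libraries. Of them PPARG, ADIPOQ, PLIN1, PLIN4, LPL, CD36, DGAT2 and LEP stayed below 1 FPKM in every library. In these bulk libraries, fewer cells of a type and less RNA per cell cannot be told apart.

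Of the 10 genes, 3 phosphatases fell (DUSP5, DUSP7 and DUSP10), 2 Sprouty genes rose (SPRY1 and SPRY2), and 4 did not pass the test (DUSP1, DUSP6, SPRY4 and SPRED1). DUSP4 was too low to be tested. SPRY1 reached 1 FPKM in the TAZ libraries only, so it passed the filter through the group where it was high. Of all tested genes 37.9% passed, 15.7% higher and 22.1% lower in the TAZ libraries, so a call is common in these data. Without genes that reached 1 FPKM in 1 group only, 4 of 8 of the set and 36.4% of all genes passed. The groups did not overlap for 4 of the 9 tested genes (44.4%), against 48.4% of all tested genes, nor for DUSP4. Every change among the 9 tested genes was under 2-fold on the fitted scale. Under median-ratio scaling of the libraries 35.5% of all tested genes passed, 18.9% higher and 16.6% lower, and the direction and call of all 5 called genes were the same.

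**Figure D1:**
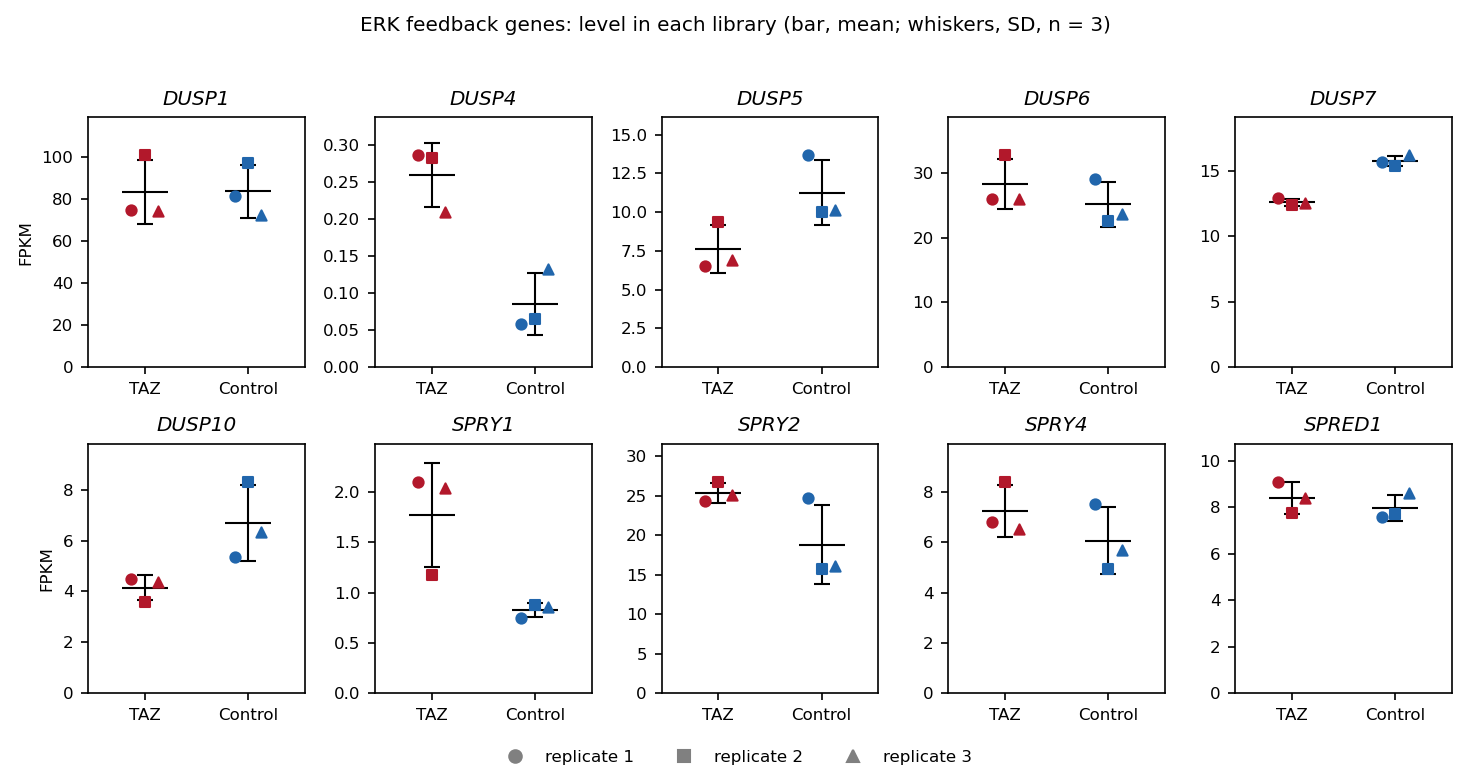
FPKM (vertical axes, each starting at 0) of the 10 genes in TAZ (red) and control (blue) libraries; symbols mark the replicate number, bars the mean and whiskers the SD (n = 3). DUSP5, DUSP7 and DUSP10 lie lower and SPRY1 and DUSP4 higher in every TAZ library than in any control library.

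DUSP1, an immediate early gene of stress and growth factor signalling, had the highest level of the set and the same mean in both groups. It stood at 74.9, 101 and 74.2 FPKM in TAZ replicates 1, 2 and 3, against 81.4, 97.4 and 72.5 FPKM in control replicates 1, 2 and 3. The groups overlapped, replicate 2 being the highest library on both sides. The means were 83.3 ± 15.2 FPKM in TAZ and 83.7 ± 12.6 FPKM in control libraries, and the test did not pass (log2 fold change -0.011, SE 0.13, limma adjusted p = 0.955). The 95% interval of the difference ran from -0.29 to 0.27 on the log2 scale, so a change of 2-fold lies outside it. The sign of this small difference turned under 2 scalings of the libraries and when single libraries were left out.

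DUSP5, a nuclear phosphatase specific for ERK, fell. Its level was 6.50, 9.40 and 6.94 FPKM in TAZ replicates 1, 2 and 3, against 13.674, 10.002 and 10.136 FPKM in control replicates 1, 2 and 3. The groups did not overlap, but TAZ replicate 2 came within 1 FPKM of control replicates 2 and 3. The means were 7.61 ± 1.56 FPKM in TAZ and 11.3 ± 2.08 FPKM in control libraries, a ratio of 0.675 (log2 fold change -0.51, SE 0.14, limma adjusted p = 0.0118). Without control replicate 1 the log2 fold change was -0.38 and the call was lost (limma adjusted p = 0.0525). These values rested on 1018 fragments in the TAZ and 1428.5 in the control libraries.

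DUSP4, a nuclear phosphatase for ERK and JNK, was barely detected. It was at 0.287, 0.283 and 0.210 FPKM in TAZ replicates 1, 2 and 3, from 26.5, 29 and 21 fragments. In control replicates 1, 2 and 3 it was at 0.0579, 0.0653 and 0.133 FPKM, from 5.5, 6 and 12.5 fragments. Every TAZ library was higher than every control library, with a ratio of means of 3.04. When limma was run with no filter DUSP4 was higher in the TAZ libraries (log2 fold change 0.22, SE 0.037, limma adjusted p = 0.0118). With a pseudocount of 0.1 in place of 1 that log2 fold change was 0.97 (SE 0.18, adjusted p = 0.0165), an alternative chosen after the values were seen. Limma's voom method on recovered fragment numbers with no filter, also not planned, gave 1.62 (SE 0.35, adjusted p = 0.0118). DUSP4 made up 0.192% of the summed FPKM of the 6 phosphatases in the TAZ and 0.0619% in the control libraries.

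DUSP6, the cytoplasmic phosphatase specific for ERK, did not pass the test. It was at 26.0, 32.7 and 26.0 FPKM in TAZ replicates 1, 2 and 3, against 29.1, 22.5 and 23.7 FPKM in control replicates 1, 2 and 3. The highest control library lay above 2 of the 3 TAZ libraries. The means were 28.2 ± 3.87 FPKM in TAZ and 25.1 ± 3.52 FPKM in control libraries (log2 fold change 0.16, 95% interval -0.088 to 0.41, limma adjusted p = 0.292).

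DUSP7, the other cytoplasmic phosphatase of ERK, fell by a small step with little spread. It was at 12.9, 12.3 and 12.5 FPKM in TAZ replicates 1, 2 and 3, against 15.6, 15.4 and 16.2 FPKM in control replicates 1, 2 and 3. The groups were well apart, and the coefficient of variation was 2.21% in TAZ and 2.54% in control libraries, where the median gene tested had 8.40% and 9.84%. The means were 12.6 ± 0.279 FPKM in TAZ and 15.7 ± 0.399 FPKM in control libraries, a ratio of 0.800 (log2 fold change -0.30, SE 0.085, limma adjusted p = 0.0137). Limma's shared estimate of the spread gave DUSP7 an SE larger than its own replicates would, and without TAZ replicate 3 the adjusted p was 0.0540.

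DUSP10, the phosphatase that prefers JNK and p38, fell. It was at 4.50, 3.57 and 4.37 FPKM in TAZ replicates 1, 2 and 3, against 5.37, 8.31 and 6.35 FPKM in control replicates 1, 2 and 3. All TAZ libraries lay below all control libraries. The means were 4.15 ± 0.502 FPKM in TAZ and 6.68 ± 1.49 FPKM in control libraries, a ratio of 0.621 (log2 fold change -0.56, SE 0.13, limma adjusted p = 0.00517). The call held with each library left out in turn, at adjusted p-values from 0.00152 to 0.0275. Its log2 fold change was the lowest of the set over all 6 libraries, but DUSP5 was lower without TAZ replicate 2 (-0.66 for DUSP5 and -0.48 for DUSP10) and without control replicate 2 (-0.58 for DUSP5 and -0.42 for DUSP10). With no filter on low genes the adjusted p was 0.0559, and DUSP5 also missed the threshold there at 0.0876. Limma's voom method on recovered fragment numbers with no filter kept both calls (adjusted p = 0.0248 for DUSP10 and 0.0442 for DUSP5).

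The phosphatases together came to 136 ± 19.9 FPKM in TAZ and 143 ± 12.6 FPKM in control libraries, sums that overlapped. DUSP1 made up 61.0 ± 2.06% of this sum in TAZ and 58.5 ± 4.18% in control libraries. DUSP6 made up 20.8 ± 0.192% in TAZ and 17.7 ± 2.76% in control libraries, and DUSP5 5.56 ± 0.353% in TAZ and 7.93 ± 1.45% in control libraries. The pair of cytoplasmic genes, DUSP6 and DUSP7, summed to 40.8 ± 3.66 FPKM in TAZ and 40.8 ± 3.53 FPKM in control libraries.

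SPRY1, the Sprouty gene with the lowest level, rose. It was at 2.10, 1.17 and 2.03 FPKM in TAZ replicates 1, 2 and 3, against 0.744, 0.880 and 0.854 FPKM in control replicates 1, 2 and 3. The groups did not overlap, and TAZ replicate 2 stood nearest to the controls. The means were 1.77 ± 0.516 FPKM in TAZ and 0.826 ± 0.0722 FPKM in control libraries, a ratio of 2.14 (log2 fold change 0.58, SE 0.13, limma adjusted p = 0.00337). The voom method of limma on recovered fragment numbers, which adds no constant of 1 FPKM, gave a log2 fold change of 1.04 from 377.5 fragments in the TAZ and 169 in the control libraries. Its fitted change was the highest of the 9 tested genes over all 6 libraries, but without control replicate 1 it was 0.55, against 0.64 for SPRY2. The call held in every alternative that tested SPRY1, at limma adjusted p-values from 4.53e-05 (replicate block) to 0.0386 (no filter). SPRY1 passed the filter through the TAZ libraries only, so the filtered fits tested it because it was high there.

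SPRY2, the most abundant Sprouty gene, rose, but 1 control library was as high as the TAZ libraries. It was at 24.3, 26.8 and 25.1 FPKM in TAZ replicates 1, 2 and 3, against 24.6, 15.7 and 16.1 FPKM in control replicates 1, 2 and 3. Control replicate 1 lay inside the range of the TAZ libraries. The means were 25.4 ± 1.26 FPKM in TAZ and 18.8 ± 5.05 FPKM in control libraries, a ratio of 1.35 (log2 fold change 0.44, SE 0.14, limma adjusted p = 0.0244). The call was lost without TAZ replicate 2 (adjusted p = 0.0753), without control replicate 2 (0.0945), without control replicate 3 (0.0550) and with no filter (0.132). Without control replicate 1 the log2 fold change was 0.64 (adjusted p = 0.000245).

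SPRY4 did not pass the test. It was at 6.79, 8.40 and 6.51 FPKM in TAZ replicates 1, 2 and 3, against 7.52, 4.94 and 5.71 FPKM in control replicates 1, 2 and 3. Control replicate 1 again lay inside the range of the TAZ libraries. The means were 7.24 ± 1.02 FPKM in TAZ and 6.06 ± 1.33 FPKM in control libraries (log2 fold change 0.23, 95% interval -0.060 to 0.52, limma adjusted p = 0.196). It passed without control replicate 1 (log2 fold change 0.38, adjusted p = 0.0372). The Sprouty genes summed to 34.4 ± 1.70 FPKM in TAZ and 25.7 ± 6.27 FPKM in control libraries. Control replicate 1 was at 32.9 FPKM of that sum, against 21.5 and 22.7 FPKM in control replicates 2 and 3.

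SPRED1 was close in both groups. It was at 9.11, 7.74 and 8.40 FPKM in TAZ replicates 1, 2 and 3, against 7.61, 7.73 and 8.61 FPKM in control replicates 1, 2 and 3. The means were 8.42 ± 0.682 FPKM in TAZ and 7.98 ± 0.549 FPKM in control libraries (log2 fold change 0.067, 95% interval -0.14 to 0.28, limma adjusted p = 0.623). A 2-fold change lies outside the interval.

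**Figure D2:**
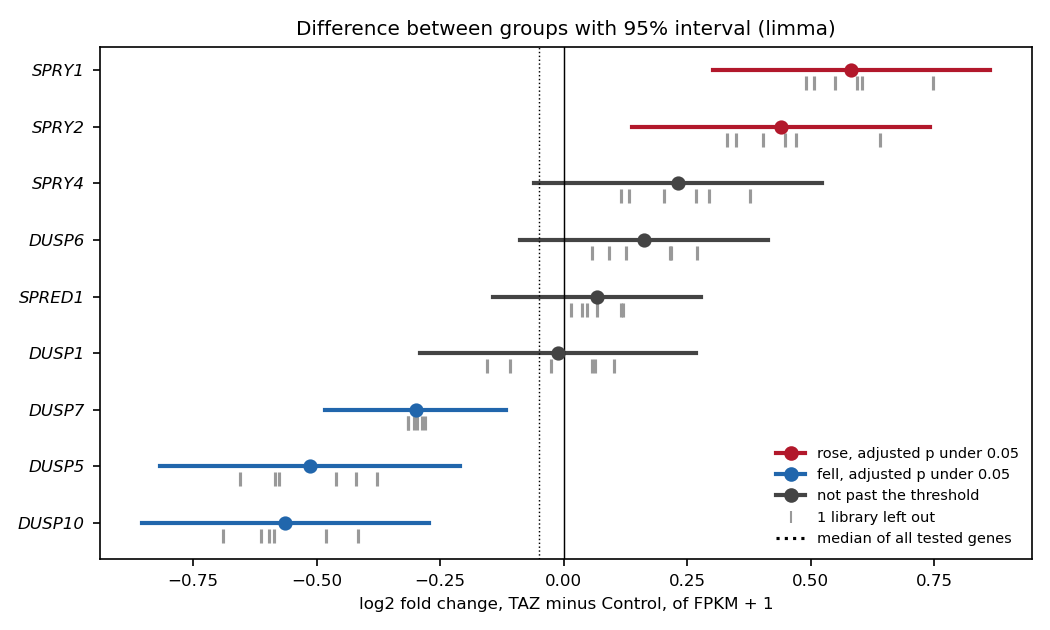
Log2 fold change of FPKM + 1, TAZ minus control (horizontal axis), of the 9 tested genes with 95% limma intervals; grey ticks are the values with 1 library left out and the dotted line is the median of all tested genes (-0.050). SPRY1 and SPRY2 lie to the right of 0 and DUSP5, DUSP7 and DUSP10 to the left, with fitted values from -0.56 for DUSP10 to 0.58 for SPRY1.

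Ordered by level, DUSP1, DUSP6, SPRY2 and DUSP7 led in both groups. In the TAZ libraries SPRED1, DUSP5, SPRY4, DUSP10, SPRY1 and DUSP4 followed, and in the control libraries DUSP5, SPRED1, DUSP10, SPRY4, SPRY1 and DUSP4 did. DUSP6 and SPRY2 overlapped in both groups. SPRY2 was above DUSP7 in every TAZ library and overlapped with it in the control libraries. Neighbours also overlapped along the run SPRED1, DUSP5 and SPRY4 in the TAZ libraries, and along SPRED1, DUSP10 and SPRY4 in the control libraries.

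Several of the genes varied within groups, in opposite directions, in a pattern that does not follow the TAZ label. TAZ replicate 2 and control replicate 1 were each the highest of their group for DUSP5, DUSP6, SPRY2 and SPRY4. The same pair of libraries were the lowest of their groups for DUSP10, SPRY1 and SPRED1, which makes 4 and 3 of the 9 tested genes. DUSP1, DUSP4 and DUSP7 followed neither order. Across all tested genes this pair was highest in 19.3% and lowest in 18.2%, so the pattern is not confined to the ERK feedback genes. Among the 6 pathway lists described below the share highest in this pair ran from 9.09% of other inhibitors of RAS and ERK (2 of 22) to 37.5% of ERK-responsive transcripts (9 of 24). Deviations of these 2 libraries from their group means correlated across genes at 0.53, those of TAZ replicate 1 and control replicate 3 at 0.69, and those of TAZ replicate 3 and control replicate 2 at 0.55. Since deviations cancel within a group, each library must correlate positively with some libraries of the other group and negatively with others. The labels tie no TAZ library to a control library beyond the replicate number. For WWTR1, TAZ replicate 2 was the highest TAZ library and control replicate 3 the highest control library. This pattern was chosen for description after the values were seen.

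**Figure D3:**
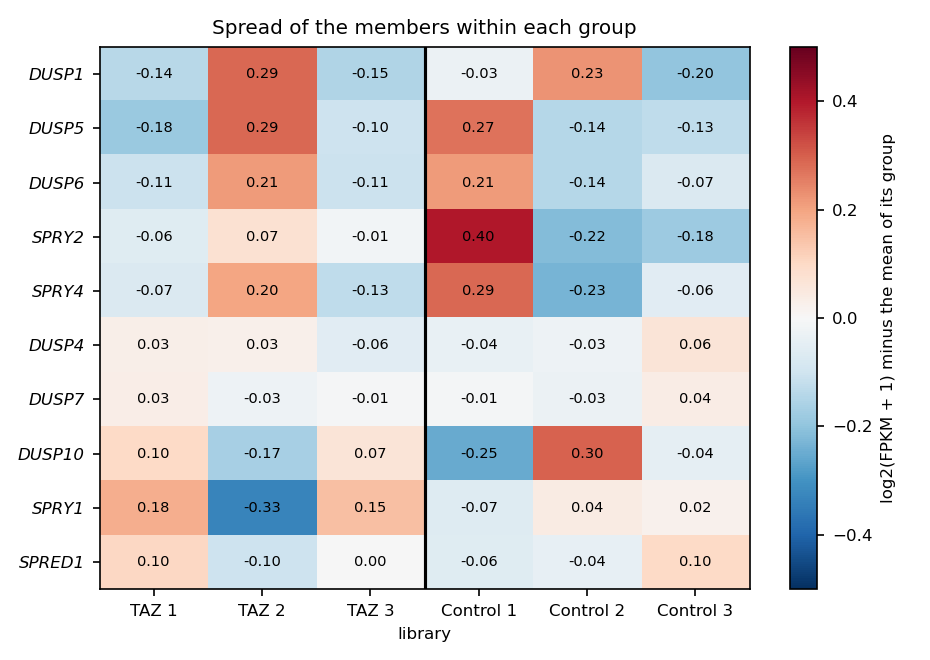
Log2(FPKM + 1) of each of the 10 genes minus the mean of its own group (colour and printed value), by library. DUSP5, DUSP6, SPRY2 and SPRY4 are above their group mean in TAZ replicate 2 (0.07 to 0.29) and control replicate 1 (0.21 to 0.40), whereas DUSP10, SPRY1 and SPRED1 are below it in both.

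Ratios between the genes within a library do not depend on how libraries are scaled. DUSP5 stood to DUSP6 at 0.250, 0.287 and 0.267 in TAZ replicates 1, 2 and 3, against 0.469, 0.444 and 0.428 in control replicates 1, 2 and 3. The groups were far apart next to their spread, although both genes varied within groups, and the ratio differed by -0.74 on the log2 scale. DUSP10 stood to DUSP1 at 0.0601, 0.0354 and 0.0589 in TAZ replicates 1, 2 and 3, against 0.0660, 0.0853 and 0.0877 in control replicates 1, 2 and 3, a log2 difference of -0.66 with no overlap. Both pairs gave the smallest p that 3 against 3 libraries allow in an exact two-sided permutation test (p = 0.1, Benjamini-Hochberg adjusted p = 0.25 over 5 pairs), so this design cannot pass 0.05. The log2 differences were -0.18 for DUSP1 to DUSP6 (exact permutation p = 0.7), -0.19 for SPRY4 to SPRY2 (exact permutation p = 0.2) and -0.39 for SPRED1 to SPRY2 (exact permutation p = 0.3). In these 3 pairs the groups overlapped.

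**Figure D4:**
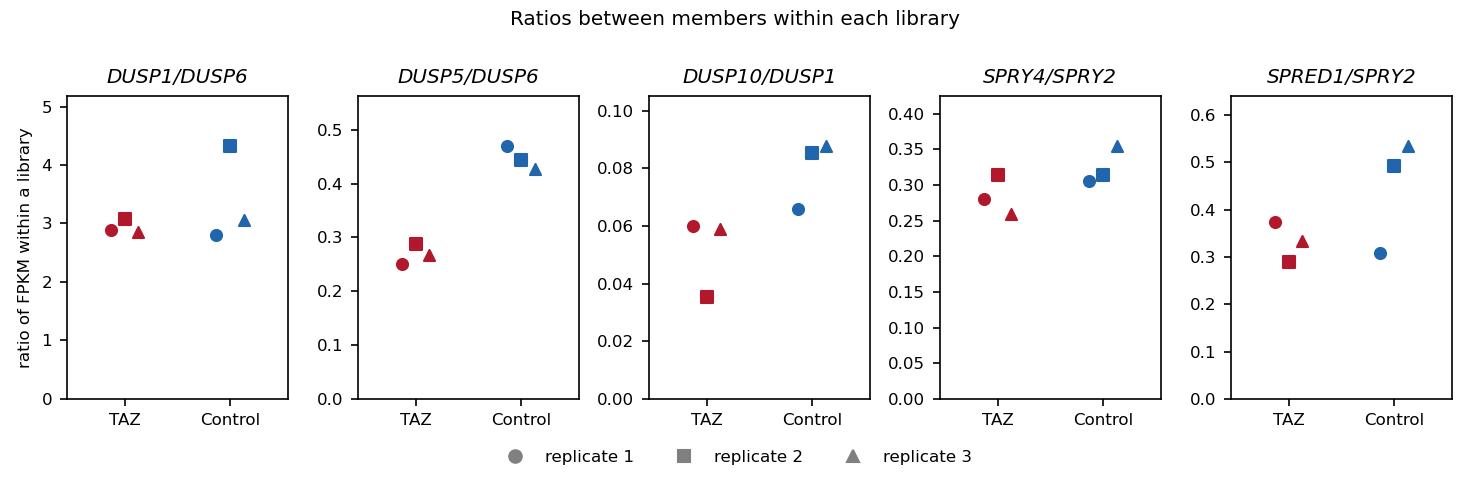
Ratio of FPKM of the first to the second gene within each library (vertical axes from 0) for 5 pairs, TAZ (red) and control (blue); symbols mark the replicate number. DUSP5 to DUSP6 is 0.250 to 0.287 in TAZ and 0.428 to 0.469 in control libraries, and DUSP10 to DUSP1 is also lower in every TAZ library.

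The genes with the profile over the 6 libraries most like that of SPRY1 were LOC102174197, TRIB1 and DCN. Likeness was the root mean square difference of centred log2(FPKM + 1), at 0.070, 0.075 and 0.078, where SPRY1 itself varied by 0.34 about its mean. TRIB1, a pseudokinase gene, was at 45.5 ± 8.66 FPKM in TAZ and 30.4 ± 2.83 FPKM in control libraries. DCN, which encodes decorin, was at 2188 ± 271 FPKM in TAZ and 1430 ± 122 FPKM in control libraries. On log2(FPKM + 1) the fold changes were 0.55 for TRIB1 and 0.61 for DCN, near the 0.58 of SPRY1. The added constant shrinks the change of SPRY1, a low gene, more than those of TRIB1 and DCN. By voom on recovered fragments, SPRY1 had a log2 fold change of 1.04. The likeness to SPRY1 therefore applies to log2(FPKM + 1), and likeness on other scales was not tested. The closest to DUSP10 were LOC108633298, SELENBP1 and PHGDH, at 0.047, 0.063 and 0.064, and PHGDH, a serine synthesis enzyme, was at 96.0 ± 7.26 FPKM in TAZ and 140 ± 28.3 FPKM in control libraries. These are descriptions with no test.

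Transcripts that ERK is known to induce moved both ways. Of 24 tested, 10 rose and 5 fell (62.5%, against 37.9% of all genes), with a median log2 fold change of 0.14, where the median of all genes was -0.050. ETV1, an ETS factor, was at 37.0 ± 3.29 FPKM in TAZ and 14.4 ± 2.13 FPKM in control libraries (log2 fold change 1.31, SE 0.11, limma adjusted p = 1.01e-06). ZFP36L1, an mRNA decay factor, was 1.60 times and EPHA4, an ephrin receptor, 1.98 times as high. VGF, a neuropeptide precursor gene, was at 586 ± 59.0 FPKM in TAZ and 1129 ± 141 FPKM in control libraries (limma adjusted p = 1.69e-05). CCND1, cyclin D1, fell to 0.632 times the control level. EGR3, a zinc finger factor, was called at 0.373 times the control level, but it reached 1 FPKM in the control libraries only (0.941, 0.603 and 0.745 FPKM in TAZ replicates 1, 2 and 3, against 2.53, 1.59 and 2.01 FPKM in control replicates 1, 2 and 3). Without it 14 of 23 passed (60.9%, against 36.4% of all genes that reached 1 FPKM in both groups).

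Genes of the cascade itself mostly did not pass the test. Of 31 tested genes from receptor adaptors and RAS to ERK and its target kinases, 2 rose and 5 fell (22.6%, against 37.9% of all genes). GAB2, a docking protein of receptor signalling, was 2.20 times as high, and GAB1 1.41 times, a call lost without TAZ replicate 1 or control replicate 1 or 2 and with no filter. MAPK3, which encodes ERK1, was at 42.8 ± 2.65 FPKM in TAZ and 67.5 ± 4.24 FPKM in control libraries (log2 fold change -0.65, SE 0.086, limma adjusted p = 6.2e-05). RPS6KA2, a kinase downstream of ERK, fell to 0.467 times and the RAS relative MRAS to 0.669 times the control level.

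Among receptor tyrosine kinases, from which the cascade starts, 7 of 16 rose and 5 fell (75.0%, against 37.9% of all genes). No fit called more than these 12, and the alternatives gave 8 to 12, or 9 to 11 with 1 library left out. Under median-ratio scaling 9 of 16 were called, where 35.5% of all tested genes passed. PDGFRB was at 71.5 ± 4.44 FPKM in TAZ and 41.5 ± 3.44 FPKM in control libraries, and FGFR1 at 93.4 ± 7.86 FPKM in TAZ and 57.3 ± 3.23 FPKM in control libraries. TYRO3 fell to 0.486 times and IGF1R to 0.801 times the control level, and the IGF1R call was lost in several alternatives. FLT1, a VEGF receptor, was called at 2.96 times and FGFR2 at 0.206 times the control level. FLT1 reached 1 FPKM in the TAZ libraries only (1.65, 1.49 and 1.38 FPKM in TAZ replicates 1, 2 and 3, against 0.671, 0.366 and 0.489 FPKM in control replicates 1, 2 and 3). FGFR2 reached it in the control libraries only (0.670, 0.414 and 0.629 FPKM in TAZ replicates 1, 2 and 3, against 2.06, 3.16 and 3.09 FPKM in control replicates 1, 2 and 3). Without these receptors 10 of 14 passed (71.4%, against 36.4% of all genes that reached 1 FPKM in both groups).

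Relatives of the set also went both ways. Of 16 tested other DUSP, slingshot, Sprouty and SPRED genes, 4 rose and 3 fell (43.8%, against 37.9% of all genes). DUSP15 was at 8.86 ± 0.764 FPKM in TAZ and 3.35 ± 0.677 FPKM in control libraries (log2 fold change 1.19, SE 0.12, limma adjusted p = 6.34e-06). DUSP16, a phosphatase of JNK and p38, was 1.72 times and SSH2, a cofilin phosphatase, 1.65 times as high. DUSP14 fell to 0.665 times, SSH3 to 0.761 times and DUSP28 to 0.770 times the control level, the last a call lost without control replicate 2. SPRED2 and SPRED3 did not pass, at 10.2 ± 0.970 FPKM and 5.63 ± 0.252 FPKM in TAZ libraries, against 11.9 ± 0.600 FPKM and 5.12 ± 0.308 FPKM in control libraries. DUSP9, below the filter and named here after its values were seen, was at 0.0494 ± 0.00691 FPKM in TAZ and 0.728 ± 0.0164 FPKM in control libraries.

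Other inhibitors of RAS and ERK numbered 22 tested, of which 4 rose and 4 fell (36.4%, near the background). LRIG1, which restrains EGF receptors, was at 61.4 ± 4.98 FPKM in TAZ and 32.1 ± 3.17 FPKM in control libraries, and RGS2 and PTPRJ were 2.80 and 2.35 times as high. RASAL2, a RAS-inactivating protein, fell to 0.592 times, PEA15, which holds ERK in the cytoplasm, to 0.761 times and LZTR1 to 0.733 times the control level. Of 28 tested genes of the JNK and p38 cascades, on which DUSP1 and DUSP10 act, 8 rose and 4 fell (42.9%, against 37.9% of all genes). MAP3K8 and MAP3K5, kinases placed in this list, were 3.90 and 2.0 times as high. Among control libraries MAP3K8 reached 1 FPKM only in replicate 2 (0.671, 1.25 and 0.622 FPKM in control replicates 1, 2 and 3). MAP3K5 did so only in control replicate 3 (0.972, 0.867 and 1.10 FPKM in control replicates 1, 2 and 3). MAP3K1, a kinase of the same list, was called at 2.33 times the control level, but it reached 1 FPKM in the TAZ libraries only. It was at 1.78, 1.73 and 1.73 FPKM in TAZ replicates 1, 2 and 3, against 0.682, 0.745 and 0.827 FPKM in control replicates 1, 2 and 3. Without it 11 of 27 passed (40.7%, against 36.4% of all genes that reached 1 FPKM in both groups). MAP2K6, which activates p38, was at 2.03 ± 0.427 FPKM in TAZ and 5.94 ± 0.896 FPKM in control libraries, and MAP3K4 and MAP2K4 fell to 0.693 and 0.738 times the control level.

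**Figure D5:**
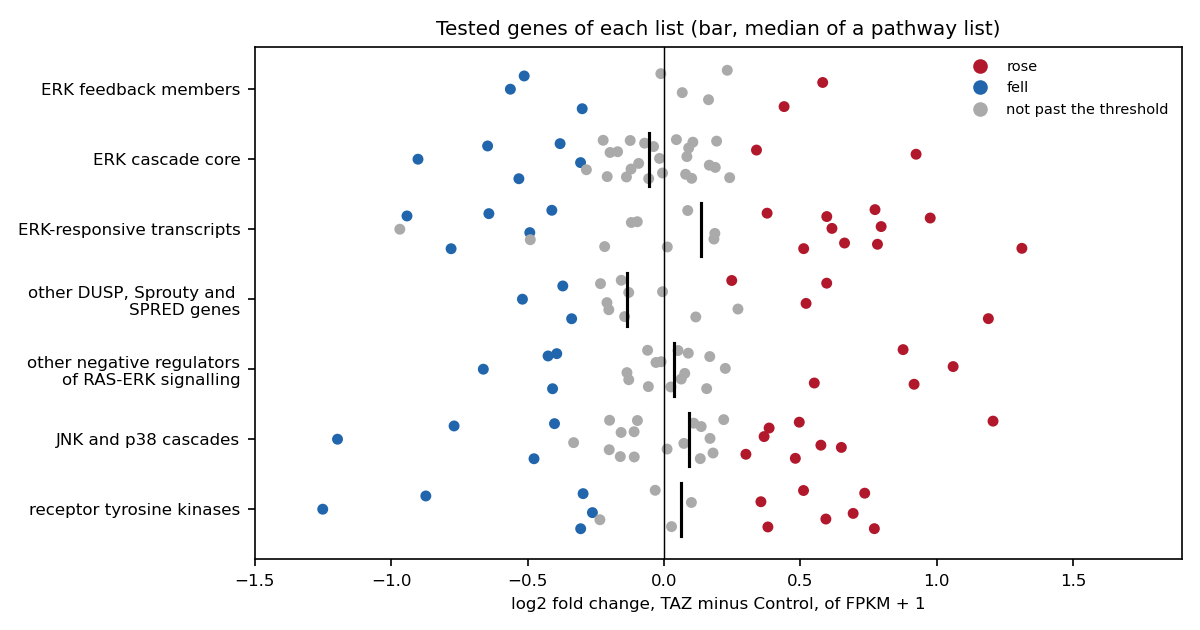
Log2 fold change of FPKM + 1, TAZ minus control (horizontal axis), of each tested gene of the ERK feedback set and of 6 pathway lists; red rose, blue fell, grey did not pass, and bars are the medians of the pathway lists. Each list holds genes on both sides of 0, up to 1.31 for ETV1; the lowest value, -1.25 for FGFR2, belongs to a gene that reached 1 FPKM in the control libraries only.

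Summed levels of leukocyte, endothelial, and pericyte and smooth muscle markers differed between the groups, whereas those of epithelial markers overlapped. Whether such cells were present, and what part they had in the results above, was not tested. Leukocyte markers summed to 39.7 to 41.9 FPKM in TAZ and 22.9 to 26.2 FPKM in control libraries, with 3 of 10 averaging at least 1 FPKM and PTPRC, the common leukocyte antigen, at 0 in every library. CSF1R, ITGAM, AIF1, CD3E, CD79A and TYROBP also stayed below 1 FPKM in every library. Endothelial markers summed to 5.83 to 6.34 FPKM in TAZ and 10.2 to 11.2 FPKM in control libraries, with 1 of 8 averaging at least 1 FPKM and KDR at 0. PECAM1, CDH5, TEK, TIE1, VWF and ESAM stayed below 1 FPKM in every library. Pericyte and smooth muscle markers summed to 232 to 301 FPKM in TAZ and 400 to 622 FPKM in control libraries, with 4 of 8 averaging at least 1 FPKM. RGS5, MCAM, MYH11 and DES stayed below 1 FPKM in every library. Epithelial markers summed to 1.07 to 1.70 FPKM in TAZ and 1.09 to 1.51 FPKM in control libraries, with 1 of 8 averaging at least 1 FPKM.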

How the data were processed

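Libraries were made from TRIzol RNA with the VAHTS Universal V6 kit, per the labels' protocols. The submitters' processing notes name fastp, HISAT2 and HTSeq with no versions. Build, strandedness and the handling of shared reads are not stated in these sources. No coordinates are therefore printed, and close paralogs and overlapping transcripts remain uncertain. Per the file headers, the authors deposited FPKM in 1 table for each group. Of 16285 rows, 23 had a date in place of the symbol and were left out. Steps of low values gave library totals and fragment numbers, in steps of 0.5, for 99.99% of genes with a value; a number counted as a step within 0.02. Pairs of libraries of 1 group differed by more than sampling noise (chi-square over its degrees of freedom, 10.41 to 16.42, over tested genes with at least 10 fragments summed over the pair).

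Samples were grouped by title. Genes with 1 FPKM or more in at least 3 of 6 libraries were tested on log2(FPKM + 1) with limma 3.58.1 in R 4.3.3 (mean-variance trend, two-sided, Benjamini-Hochberg). This step was also checked on simulated data. The simulation drew each library independently, so it did not cover the correlated deviations between TAZ and control libraries. Since the labels do not describe the replicates' origin, p-values reflect only library-to-library spread, possibly technical. Members and lists were chosen with earlier results of these data known. Genes named were the members, WWTR1, up to 3 risen and 3 fallen genes of each list by adjusted p, and 3 nearest profiles of SPRY1 and DUSP10; exceptions are marked. FGFR3, KIT, KSR1, MAP3K20, RASA4, AQP7, EMCN and CLDN5 were not analysed here. Alternatives were other pseudocounts, filters, scalings, variance models, a replicate block, voom on fragments and leaving out each library.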

Additional observations from a re-analysis of the deposited data

How the results depend on the processing

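Of the 10 genes, 5 passed in the reported fit, and 3 passed with no filter, also with a pseudocount of 0.1 and no filter, an alternative chosen after seeing the data. With no filter 1 fell (DUSP7) in place of 3, and 2 were higher (SPRY1 and DUSP4). DUSP4, not tested in the reported fit, thus stood in place of SPRY2. DUSP5, DUSP10 and SPRY2 were lost there (limma adjusted p = 0.0876, 0.0559 and 0.132). Voom on recovered fragments with no filter, also not planned, called 5 of the 10 genes. In that fit DUSP5 and DUSP10 kept their calls (limma adjusted p = 0.0442 and 0.0248), DUSP4 passed and SPRY2 did not (0.0731). Under the stricter filter, at a mean of 5 FPKM, 1 rose in place of 2, since SPRY1 was not tested there. Leaving out single libraries gave 4 to 5 called, 1 to 3 that rose and 2 to 3 that fell. DUSP1, never called, had log2 fold changes of 0.045 under median-ratio scaling and 0.036 when rescaled without the top 50 genes, and of -0.15 to 0.10 with 1 library left out. The DUSP1 to DUSP6 ratio differed by -0.31 to 0.0068 with 1 library left out, the highest without control replicate 2. Among the other DUSP, Sprouty and SPRED genes 11 were called with no filter, at either pseudocount, in place of 7, with 25 tested rather than 16. In the JNK and p38 cascades 7 were called under the stricter filter, in place of 12. The cause was not tested where none is given. All genes called ranged from 3049 to 4396 of those tested over the alternatives. Same-numbered libraries showed no sign of pairing: their deviations correlated across genes at -0.44, -0.11 and -0.40, and no library correlated best with its own number. Libraries with other numbers correlated at 0.53 to 0.69 in 3 pairs, which no label ties together, and no fit used those pairs. Deviations cancel within a group, so correlations of both signs were bound to arise. With the replicate block 4 of the 10 genes and 3512 of all genes were called, and DUSP7 had an adjusted p = 0.0600. Without any filter, DUSP4 rested on 76.5 fragments in the TAZ and 24 in the control libraries. The share of risen genes among calls was 41.6%, and 53.2% under median-ratio scaling.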
